A study of Mus musculus with 8 samples.

Results

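The comparison described here sets the livers of 2 mice fed a high-fat diet (HFD) for 9 months against those of 2 mice fed a normal diet (ND) for 9 months, 4 of the 8 arrays of a study of hepatic inflammation in diet-fed mice. The 4 arrays were chosen by the diet and duration in their titles, and every gene measured on them was described. All mice were male C57BL/6, bought at 5 weeks of age and sorted into groups of matched weight. The ND supplied 3.8 kcal per g with 4.8% fat, 50.21% carbohydrate and 20.78% protein, and the HFD, sold as D12231, supplied 5.2 kcal per g with 58% fat, 25.5% carbohydrate and 16.4% protein, both eaten freely. Whether these percentages are by weight or by energy is not given here, so those of the 2 diets may not be on the same measure. The other 4 arrays, 2 per diet after 3 months, entered the fit only to estimate the spread and to set the 9-month difference beside the 3-month one. Total RNA of whole liver tissue was labelled with Cy3 and hybridised to 1-colour Agilent arrays, 1 mouse per array.

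Feeding rodents a diet rich in fat is a standard model of obesity and fatty liver. Hepatocytes store surplus fatty acids as triglyceride in droplets coated by perilipin and CIDE proteins, and their lipid synthesis is driven by SREBP1 and by the sugar sensor ChREBP, their lipid uptake in part by PPARG, and their fatty acid oxidation by PPARA. With long feeding, inflamed fatty livers are known to gain macrophages that express Trem2, Gpnmb and Itgax and to lay down collagen from activated stellate cells. None of these processes was measured directly: the arrays report RNA levels in whole tissue, where fewer cells of a type and less RNA per cell cannot be told apart.

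Values below are log2 intensities minus the 75th percentile of their array, so that 0 marks a spot as bright as that percentile, and a difference of 1 is a 2-fold change. Differences are HFD minus ND, with the standard error of the limma fit after the ± sign; each group has 2 mice. A gene is called, and is said to have risen or fallen, where the Benjamini-Hochberg adjusted p of limma is under 0.05 over the 20165 features tested. A probe's level is read against the same probe on other arrays and never against another probe.

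Every ND array was on slide 1 and every HFD array on slide 2. An effect of the diet and an effect of the slide cannot be told apart. The slides differed in measurable ways. Repeated spots of a probe scattered with an SD between 0.0686 and 0.0786 (log2) on the 2 ND arrays of 9 months and between 0.121 and 0.156 on the 2 HFD arrays. The 75th percentile of intensity was 596.5 and 552.4 on the ND arrays and 426.1 and 185.4 on the HFD arrays, so HFD mouse 2 had the dimmest array, and between 40.6% and 54.1% of features were well above background. Across features the correlation was 0.978 between the 2 ND mice, 0.969 between the 2 HFD mice and 0.937 to 0.954 between mice of different diets; it is a description, since genes are not replicates. ND mouse 1 stood apart from ND mouse 2 in inflammatory genes: the acute-phase gene Saa1 read 9.89 in the first and 5.03 in the second.

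After 9 months 1670 of the 20165 features (8.28%) were called, 717 (3.56%) higher on HFD and 953 (4.73%) lower. Of the 12885 features that could be given a gene symbol, 953 (7.4%) were called. Of these, 567 (4.4%) were higher and 386 (3%) lower, and the median difference was 0.12. The called rises of genes with a symbol had a median size of 1.44 and the called falls one of 1.78. Scaling each array to its median in place of its 75th percentile turned the split of all features to 372 higher and 1004 lower, so the balance of rises and falls depends on the scaling. At an unadjusted p under 0.05 there were 5786 features.

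The calls rest on the spread pooled over all 8 arrays. The 4 arrays of 9 months fitted alone called 0 features with limma, with 3828 at an unadjusted p under 0.05, and weighting arrays by their quality left 276. Leaving out 1 array gave 460 without ND mouse 1 of 3 months, 223 without ND mouse 2 of 3 months, 822 without ND mouse 1, 378 without ND mouse 2, 1208 and 1306 without HFD mouse 1 or 2 of 3 months, 2733 without HFD mouse 1 and 2861 without HFD mouse 2. By rules of size and of p, 154 called genes were selected, and all 154 kept their direction in every fit. Of these, 27 were called with any of the 8 arrays left out: Adgrv1, Anxa2, Baiap2l2, Car3, Ccl24, Cd4, Col1a1, Col3a1, Cx3cr1, Cyp4a32, Dbp, Dcaf12l2, Gucy2c, Lgals1, Ly6c1, Osbpl3, Phlda3, Pvt1, S100a11, Sall4, Slc45a3, Srebf1, Ssbp2, Trem2, Ubd, Vsig8 and Wee1. The others lost their call without at least 1 array. Among them, Acot9, Chac1, Hadh, Irs2, Khk, Mcm2 and Tnfaip3 lost it whichever array was left out. The kept direction is no test of the selected genes. Where the diets do not overlap, leaving out 1 array cannot turn the direction on the same probe.

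The largest rises were taken from called genes well above background on all 4 arrays whose groups did not overlap. Cyp2b13, a P450 enzyme typical of female liver, read -1.72 and -3.58 on ND and 5.55 and 3.08 on HFD, a difference of 6.97 ± 1.18, adjusted p = 0.0241. Cidea, a droplet protein that lets lipid droplets grow by fusion, read 1.24 and -2.86 on ND and 6.34 and 4.69 on HFD (6.32 ± 1.27, adjusted p = 0.0369). The ND mice lay far apart for both genes, and by the way the genes were chosen no HFD mouse lay within their range. Ubd, a ubiquitin-like protein induced by inflammatory cytokines, read -2.17 and -3.22 on ND and 2.38 and 2.15 on HFD (4.96 ± 0.35, adjusted p = 0.0056). Thrsp, a nuclear protein of lipogenic tissues, read -0.12 and 0.30 on ND and 6.37 and 3.10 on HFD, with the 2 HFD mice far apart (4.64 ± 1.02, adjusted p = 0.0447). Adgrv1, a very large adhesion receptor, read -1.70 and -1.23 on ND and 3.14 and 2.92 on HFD (4.49 ± 0.36, adjusted p = 0.0056), and here each group was tight.

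Other genes among the 12 largest rises were Trem2, Cyp2b10, Osbpl3, Hsd17b6, Slc22a29, Itgax and Gsta1. Osbpl3, an oxysterol-binding protein, read -1.92 and -3.15 on ND and 2.19 and 1.30 on HFD (4.28 ± 0.49, adjusted p = 0.0101), and its other probe differed by 4.10. Hsd17b6, a steroid dehydrogenase, read -0.45 and -1.75 on ND and 3.04 and 2.10 on HFD (3.67 ± 0.59, adjusted p = 0.0212).

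**Figure D1:**
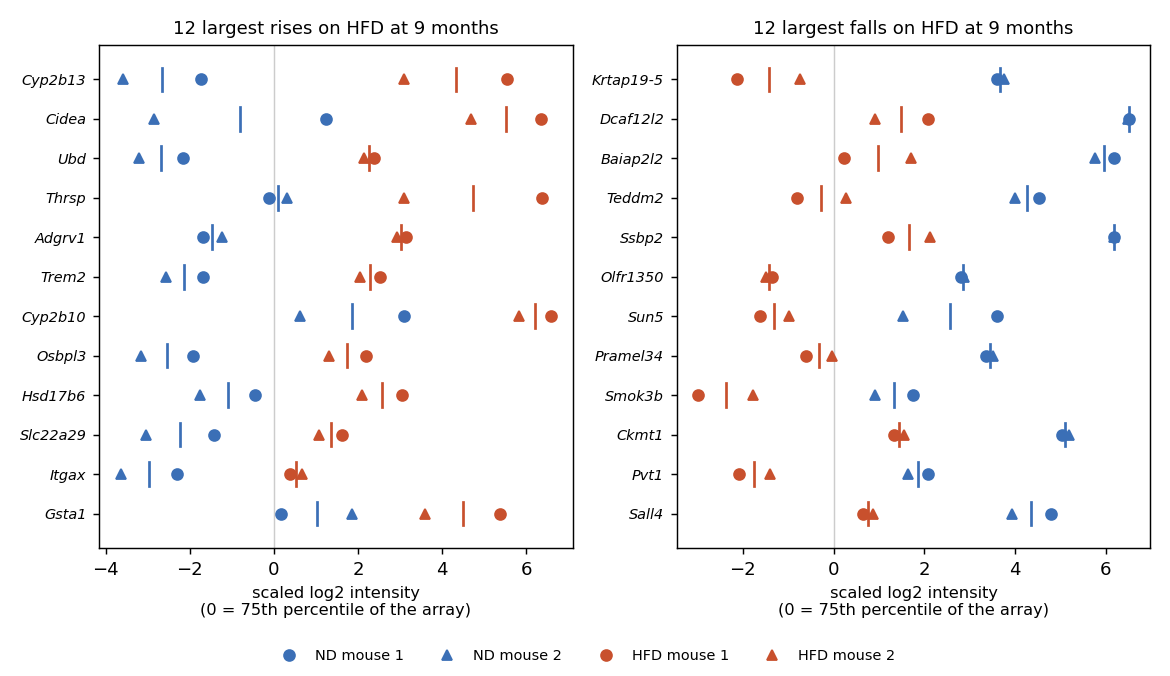
Scaled log2 intensity at 9 months of the 12 largest rises (left) and 12 largest falls (right) among called genes well above background on all 4 arrays. Circles are mouse 1 and triangles mouse 2 of each diet, ND in blue and HFD in orange, and vertical bars are group means; Cyp2b13 runs from -3.58 on ND to 5.55 on HFD, and the 2 HFD mice differ most for Thrsp, at 6.37 and 3.10.

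Some rises could be read on more than 1 probe. Dbp, an output factor of the clock, read 3.38 and 3.45 on ND and 6.40 and 5.94 on HFD (2.76 ± 0.23, adjusted p = 0.00642) and 2.63 higher on its other probe. Vldlr, the receptor for very low density lipoprotein, rose by 2.73 ± 0.34 with 1.79 on the other probe. Mthfd1l, an enzyme of mitochondrial folate metabolism, rose by 2.60 ± 0.31 (2.20 on the other), and Ly6c1, a surface protein of endothelial and myeloid cells, by 2.50 ± 0.17 (1.24). In Ly6c1 the mice of each diet were almost equal, at 1.81 and 1.82 on ND and 4.36 and 4.26 on HFD. Further called genes, chosen because every probe was higher on HFD without overlap, were Slc8a3 (2.42 ± 0.41), Samd9l (2.37 ± 0.43), the water channel Aqp8 (2.32 ± 0.44), the peptidase Mme (2.18 ± 0.34), the chemokine Cxcl9 (1.98 ± 0.27), the corticosteroid-binding globulin Serpina6 (1.85 ± 0.23) and the actin-binding protein Tagln2 (1.82 ± 0.25).

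Among called genes well above background on all 4 arrays and without overlap, the largest falls held few genes with a known role in liver. Krtap19-5, a hair keratin-associated protein, read 3.60 and 3.75 on ND and -2.12 and -0.73 on HFD (-5.10 ± 0.54, adjusted p = 0.0088). Its other probe differed by -1.40. Baiap2l2, a membrane-shaping protein, read 6.17 and 5.75 on ND and 0.24 and 1.70 on HFD (-4.99 ± 0.53, adjusted p = 0.00884). Ssbp2, a DNA-binding cofactor, read 6.18 and 6.19 on ND and 1.21 and 2.13 on HFD (-4.51 ± 0.36, adjusted p = 0.0056). Its other probes differed by -1.21 and -3.55. In all 3 genes the ND mice lay close together and the HFD mice lay apart. The other members of the 12 were Dcaf12l2, Teddm2, the odorant receptor Olfr1350, the testis proteins Sun5, Pramel34 and Smok3b, the mitochondrial creatine kinase Ckmt1, the long noncoding RNA Pvt1 and the stem cell factor Sall4, with differences from -5.01 ± 0.43 to -3.60 ± 0.33. For Dcaf12l2 and Pvt1 a further probe read higher on HFD, by 0.89 and 0.39.

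Some called genes could be read on a further probe. Of 109 called rises with other kept probes, the median of those probes was also higher in 97 (89.0%), with a median of 0.77 against 1.26 on the probe used. Of 72 called falls the other probes were lower in 47 (65.3%), with a median of -0.48 against -1.64. The other probes were higher in 52.1% of the 2858 uncalled genes that had them. All probes moved the called way without overlap in 73 of the 109 rises (67%) and in 35 of the 72 falls (48.6%). These counts include the probe that gave the call, and the share for uncalled genes is not given. Read on 1 probe each, 35% of all genes with a symbol were higher in both HFD mice without overlap and 20.7% lower. Called falls chosen because every probe was lower without overlap included Slc45a3 (-2.93 ± 0.23, other probe -0.94), Krtap5-5 (-3.32 ± 0.45, -1.40), Lce1a2 (-2.23 ± 0.37, -1.60), Abcb8 (-2.78 ± 0.42, -0.76), Prh1 (-2.92 ± 0.43, -0.49) and Bcorl1 (-1.21 ± 0.20, -2.23). Tested on its own among all kept probes, the further probe was not called for Slc45a3, Krtap5-5, Abcb8 or Prh1. Nor was any further probe called for Krtap19-5, Ssbp2, Dcaf12l2, Pvt1 or Acot5. Among the rises it was not called for Vldlr, Slc8a3, Aqp8, Atp6v0d2, Mgst3 or Plac8.

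**Figure D2:**
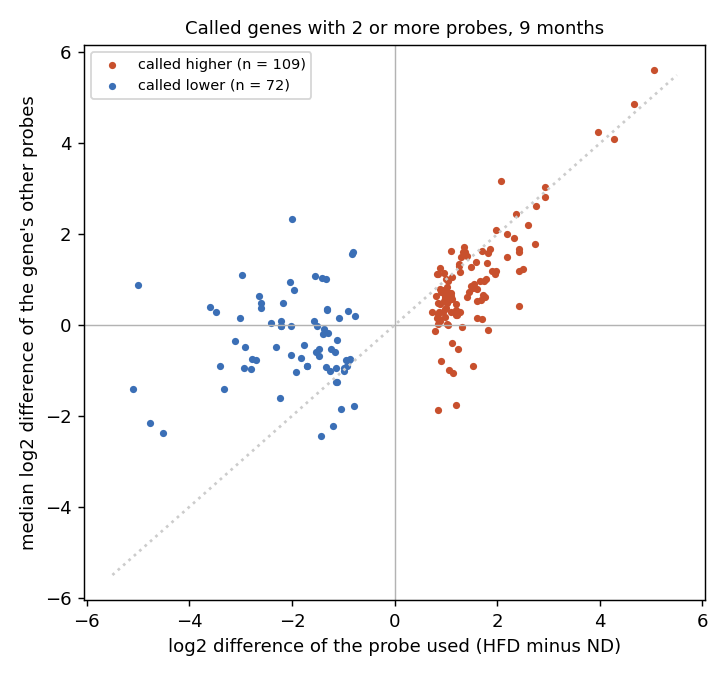
For called genes with 2 or more kept probes, the log2 difference (HFD minus ND, 9 months) of the probe used for the gene on the x axis and the median of its other probes on the y axis; orange points are 109 called rises, blue points 72 called falls, and the dotted line marks equal values. In 97 of the 109 rises the other probes also lie above 0, and in 47 of the 72 falls they lie below 0.

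The gene groups below are lists chosen with earlier results of these data known, so their counts describe these arrays and are no independent evidence of a theme. Each count of called members should be read against the 4.4% of genes called higher and the 3% called lower, each list median against the 0.12 of all genes with a symbol, and each count without overlap against the 35% of genes whose 2 HFD values lay above both ND values and the 20.7% whose lay below. A member that passed the filter on dim probes only through the HFD arrays had to read higher there. Among members well above background on all 4 arrays, rises were 5 of 13 in place of 7 of 17 for female-biased genes, 3 of 24 in place of 5 of 27 for P450 genes, 4 of 21 in place of 7 of 29 for matrix proteins, 5 of 18 in place of 6 of 24 for the cell cycle and 3 of 32 in place of 4 of 33 for the lysosome. The rise among amino acid genes and the fall among chemokines were not among such members. The lists overlap in part. Members named without a call were chosen for their known role, with their values already seen.

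**Figure D3:**
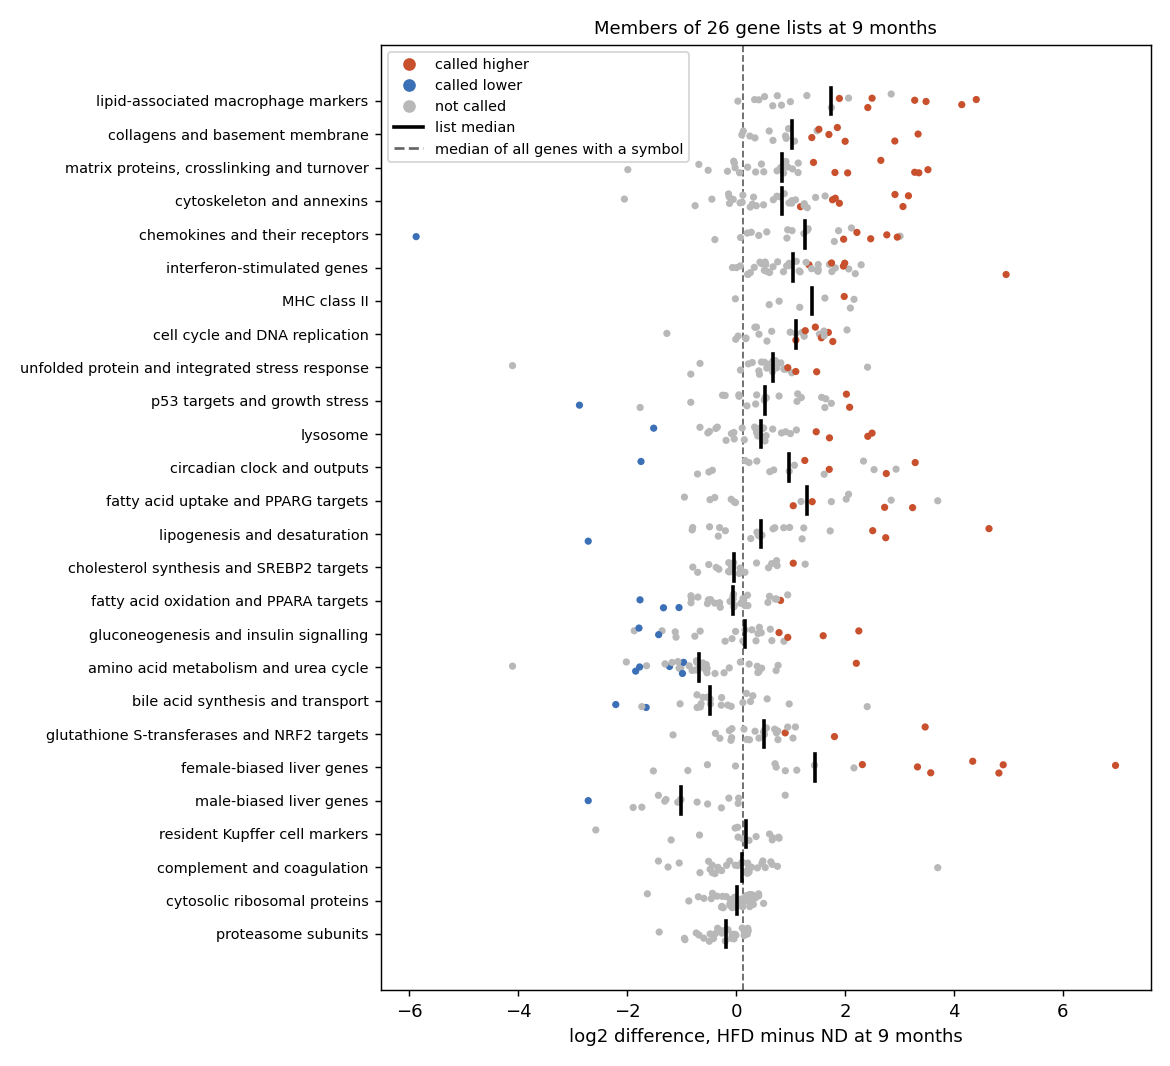
Log2 difference (HFD minus ND) at 9 months of each measured member of 26 gene lists; points are genes, orange where called higher, blue where called lower and grey where not called, black bars are list medians and the dashed line is the median of all genes with a symbol, 0.12. Medians lie to the right of that line for macrophage, collagen, chemokine and interferon genes, and to the left for amino acid and bile acid genes.

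Some genes of lipid uptake and of the lipogenic program rose, while the coat proteins of lipid droplets other than Cidea were not called. Of the list of fatty acid uptake and PPARG targets, 4 of 16 measured members rose and 0 fell (median 1.30), a count that ran from 0 without ND mouse 2 to 6 without ND mouse 1. Pparg itself, the nuclear receptor that drives lipid storage, read 2.18 and 2.12 on ND and 3.56 and 3.53 on HFD (1.40 ± 0.17, adjusted p = 0.0107). Vldlr read 0.10 and -0.68 on ND and 2.53 and 2.35 on HFD (adjusted p = 0.0123). Fabp4, a fatty acid carrier, read 0.78 and 0.31 on ND and 3.07 and 4.50 on HFD (3.24 ± 0.46, adjusted p = 0.0152). The mice of the 2 diets were well apart for each of these 3. At 3 months Pparg read 3.64 and 3.71 on ND and 3.48 and 3.65 on HFD, so the ND mice of 9 months were the lowest of the 8. Vldlr and Fabp4 differed by 1.96 and 1.90 at 3 months. The transporter Cd36 (1.75 ± 0.48, adjusted p = 0.0756), the lipase Lpl (2.07 ± 0.53, adjusted p = 0.0642) and the acyltransferase Mogat1 (2.02 ± 0.69, adjusted p = 0.118) were not called.

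Fabp4, Cidea and Car3 are also abundant in adipocytes. In the adipocyte list 3 of 7 members rose, which were these genes, and rises ran from 1 without ND mouse 2 of 3 months or ND mouse 2 to 4 without ND mouse 1. The summed linear intensity of the list, relative to the 75th percentile, was 70.1 and 60 on ND and 540 and 414 on HFD; without Car3, which liver also makes in abundance, it was 24.5 and 8.29 on ND and 159 and 71.9 on HFD. Of the genes that define adipocytes, Adipoq, Lep, Plin1 and Retn were not among the features tested, and Cfd was not called (3.70 ± 1.105, adjusted p = 0.0906). The part of fat cells in these rises was not tested.

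Of the lipid droplet coat and CIDE list, 1 of 15 members rose: Cidea, a count that ran from 0 without ND mouse 1 of 3 months, ND mouse 2 of 3 months or HFD mouse 2 of 3 months to 2 without HFD mouse 1 or HFD mouse 2. Its call was held in 1 of the 8 fits with an array left out, and ND mouse 1, at 1.24, lay between ND mouse 2 and the HFD mice. Cidec read 4.27 and 2.73 on ND and 6.07 and 4.21 on HFD (1.64 ± 0.78, adjusted p = 0.223). Plin4 read 1.84 and 3.47 on ND and 4.22 and 4.35 on HFD (1.63 ± 0.53, adjusted p = 0.109), both with groups too scattered to pass. Plin2, the main droplet coat protein of hepatocytes, differed by -0.12 ± 0.30, adjusted p = 0.82.

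In the lipogenesis and desaturation list 3 of 22 members rose and 1 of 22 fell (median 0.46), and the count of rises ran from 1 without ND mouse 1 of 3 months, ND mouse 2 of 3 months, ND mouse 1 or ND mouse 2 to 5 without HFD mouse 1. Srebf1, which encodes SREBP1, read -1.93 and -1.78 on ND and 0.87 and 0.92 on HFD (2.75 ± 0.27, adjusted p = 0.00758). Pklr, the liver pyruvate kinase and a classic ChREBP target, read -0.93 and -0.70 on ND and 1.99 and 1.40 on HFD (2.51 ± 0.40, adjusted p = 0.0212). The third riser was Thrsp, described above, and the gene that fell was Elovl3, a fatty acid elongase more abundant in male liver, at 4.57 and 4.71 on ND and 1.57 and 2.28 on HFD (-2.71 ± 0.44, adjusted p = 0.0221). At 3 months Srebf1 read 2.885 and 2.15 on ND and 3.25 and 3.49 on HFD. Thrsp read 6.89 and 7.07 on ND and 6.96 and 8.325 on HFD at 3 months. In both genes all mice of 3 months lay above those of 9 months, whatever the diet. Pklr at 3 months read 1.02 and 1.18 on ND and 1.495 and 2.625 on HFD, above the ND mice of 9 months. Elovl3 differed by -2.92 at 3 months. The enzymes at the core of the pathway were more scattered: Fasn, the fatty acid synthase, read -2.33 and -1.84 on ND and -0.40 and -1.81 on HFD (0.98 ± 1.02, adjusted p = 0.567). Scd1, the main desaturase, read 4.45 and 5.20 on ND and 7.45 and 5.65 on HFD (1.73 ± 0.76, adjusted p = 0.193). The sterol regulatory element was searched as TCAC, 1 base of any kind, then CCAC, on either strand. The search ran from 250 bases before the RefSeq start to 50 bases after it. The element lies in 1 of the 16 list members with a promoter (6.25%), against 1.44% of all genes of the promoter table. Of the 3 called members with a promoter, 0 hold it. In cholesterol synthesis 1 of 23 members rose and none fell; the count ran from 0 without ND mouse 1 of 3 months, ND mouse 2 of 3 months, ND mouse 1, ND mouse 2, HFD mouse 1 or HFD mouse 2 to 1 without HFD mouse 1 of 3 months or HFD mouse 2 of 3 months.

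In the list of fatty acid oxidation and PPARA targets 3 of 32 members fell and 1 of 32 rose (median -0.05), with falls ranging from 0 without ND mouse 2 of 3 months to 5 without HFD mouse 1. Acot1, which cleaves long-chain acyl-CoA, read 7.29 and 7.14 on ND and 5.39 and 5.51 on HFD (-1.76 ± 0.21, adjusted p = 0.0108). Ehhadh, the bifunctional enzyme of peroxisomal oxidation, read 7.06 and 7.01 on ND and 5.67 and 5.74 on HFD (-1.33 ± 0.18, adjusted p = 0.0139). Cyp4a10, a fatty acid omega-hydroxylase, read 9.33 and 9.14 on ND and 8.27 and 8.11 on HFD (-1.05 ± 0.20, adjusted p = 0.0334), and its other probes differed by a mean of -1.84. Its relatives Cyp4a31 (-1.44 ± 0.21, adjusted p = 0.0161) and Cyp4a32 (-1.77 ± 0.21, adjusted p = 0.0107) fell too, but these copies are nearly identical in sequence and their probes may share signal. At 3 months Acot1 read 4.07 and 4.27 on ND and 4.49 and 4.91 on HFD, while Ehhadh differed by 0.82 and Cyp4a10 by 1.34. For Acot1, Ehhadh and Cyp4a10 the ND mice of 9 months stood above all others. The member that rose was Hadh, a mitochondrial dehydrogenase (0.82 ± 0.19, adjusted p = 0.0498), a call lost with any array left out. The direct repeat that PPARA binds (searched as AGGTCA, 1 base of any kind, then AGGTCA, on either strand) lies in 0 of the 24 members with a promoter, against 0.0481% of all genes of the promoter table.

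Among acyl-CoA thioesterases 2 of 11 fell, Acot1 and Acot5, and 1 of 11 rose, Acot9 (1.27 ± 0.26, adjusted p = 0.0388); falls ranged from 0 without ND mouse 2 of 3 months to 2 without ND mouse 1 of 3 months, ND mouse 1, HFD mouse 1 of 3 months, HFD mouse 2 of 3 months, HFD mouse 1 or HFD mouse 2, and rises from 0 without ND mouse 1 of 3 months, ND mouse 2 of 3 months, ND mouse 1, ND mouse 2, HFD mouse 1 of 3 months, HFD mouse 2 of 3 months or HFD mouse 1 to 1 without HFD mouse 2. Acot5, a peroxisomal member, read 3.28 and 3.17 on ND and 0.81 and 1.03 on HFD (-2.30 ± 0.28, adjusted p = 0.0108), and its other probe differed by -0.48. At 3 months the same probe read -0.35 and -0.13 on ND and 0.41 and 1.15 on HFD. The HFD levels of Acot5 thus lay close together at both durations, and the ND mice of 9 months stood above all others.

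Genes of glucose handling moved in both directions. In the gluconeogenesis and insulin list 4 of 25 members rose and 2 of 25 fell; rises ran from 0 without ND mouse 1 of 3 months, ND mouse 2 of 3 months or ND mouse 1 to 2 without HFD mouse 1 of 3 months, HFD mouse 2 of 3 months or HFD mouse 2 and falls from 0 without ND mouse 2 of 3 months or ND mouse 2 to 4 without HFD mouse 2. Pik3r1, the regulatory subunit of phosphoinositide 3-kinase, read 0.18 and 0.22 on ND and 1.69 and 1.91 on HFD (1.60 ± 0.29, adjusted p = 0.0278). Khk, the fructokinase (0.79 ± 0.18, adjusted p = 0.0478), and Trib3, a pseudokinase that binds AKT (0.95 ± 0.21, adjusted p = 0.0452), rose by less, with almost equal values within each diet. The call of Khk was lost with any array left out.

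Of the members that fell, Irs2, an insulin receptor substrate, read 4.47 and 3.90 on ND and 2.58 and 2.96 on HFD (-1.42 ± 0.31, adjusted p = 0.0429). Its call was lost with any array left out. Ppp1r3b, a subunit that targets a phosphatase to glycogen, read 8.52 and 8.62 on ND and 6.89 and 6.67 on HFD (-1.78 ± 0.22, adjusted p = 0.0116), and was called in 6 of the 8 fits without 1 array. Pck1, the rate-limiting enzyme of gluconeogenesis, lay lower in both HFD mice, at 8.47 and 8.94 on ND and 7.90 and 7.27 on HFD, and was not called (-1.12 ± 0.27, adjusted p = 0.0582). Neither was Igfbp1 (-1.36 ± 1.04, adjusted p = 0.432), a secreted protein that insulin represses.

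Genes of amino acid breakdown and of the urea cycle held 5 of the falls. Of 38 members 5 fell and 1 rose, 25 were lower in both HFD mice without overlap, and the list median was -0.67; the count of falls ran from 0 without ND mouse 1 of 3 months, ND mouse 2 of 3 months or ND mouse 2 to 14 without HFD mouse 1. Tat, the tyrosine aminotransferase, read 6.68 and 7.20 on ND and 5.34 and 4.85 on HFD (-1.84 ± 0.30, adjusted p = 0.0225). Got1, the cytosolic aspartate aminotransferase, read 7.01 and 6.75 on ND and 5.53 and 4.70 on HFD (-1.77 ± 0.36, adjusted p = 0.0373). Asl, the argininosuccinate lyase of the urea cycle, read 6.25 and 6.75 on ND and 5.56 and 5.000 on HFD (-1.22 ± 0.27, adjusted p = 0.046). The spread between the HFD mice was wider than between the ND mice for Got1, and no values crossed between diets.

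Gls2, the liver glutaminase, fell by 0.96 ± 0.19 (adjusted p = 0.0359), and Sdsl, which deaminates serine, by 0.98 ± 0.18 (adjusted p = 0.0284). The member that rose was Psat1, an enzyme of serine synthesis (2.21 ± 0.42, adjusted p = 0.0311), whose probe was well above background on 1 of the 2 ND arrays. Cps1, which starts the urea cycle, read 5.29 and 5.67 on ND and 4.81 and 3.55 on HFD and was not called (-1.30 ± 0.41, adjusted p = 0.101).

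In bile acid synthesis and transport 2 of 23 members fell and 0 rose (median -0.47); the count of falls ran from 0 without ND mouse 1 of 3 months, ND mouse 2 of 3 months, ND mouse 1 or ND mouse 2 to 4 without HFD mouse 1. Cyp8b1, the hydroxylase that makes cholic acid, read 4.41 and 4.02 on ND and 2.39 and 1.62 on HFD (-2.21 ± 0.40, adjusted p = 0.0283). Baat, which joins bile acids to taurine or glycine, read 2.95 and 3.17 on ND and 0.89 and 1.94 on HFD (-1.65 ± 0.34, adjusted p = 0.0394). Cyp7a1, the rate-limiting enzyme of bile acid synthesis, read 1.95 and 3.005 on ND and 2.06 and 0.84 on HFD, and its groups overlapped (-1.03 ± 0.80, adjusted p = 0.439).

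Mouse liver has many enzymes and transporters that are more abundant in 1 sex. Of female-biased genes 7 of 17 rose and 0 fell (median 1.44), while of male-biased genes 0 rose and 1 of 16 fell (median -1.01), though 10 of the 16 were lower in both HFD mice. Falls of male-biased genes ran from 0 without ND mouse 1 of 3 months, ND mouse 2 of 3 months, ND mouse 1 or ND mouse 2 to 3 without HFD mouse 2, and their median from -1.22 without ND mouse 1 to -0.34 without HFD mouse 1. Rises of female-biased genes ran from 0 without ND mouse 2 of 3 months to 5 without ND mouse 1 or HFD mouse 2. Slc22a29 read -1.42 and -3.04 on ND and 1.63 and 1.07 on HFD (3.57 ± 0.52, adjusted p = 0.0159). Slc22a27 read -0.73 and -2.70 on ND and 1.90 and 1.33 on HFD (3.33 ± 0.61, adjusted p = 0.0294); both are organic anion transporters. Hao2, a hydroxyacid oxidase, was not well above background on either ND array and was at least 8.69-fold higher on HFD (adjusted p = 0.0308); the bound sets the HFD mean against, on each ND array, the dimmest signal still well above background or the probe's own signal where that is higher. All 4 mice compared were male, per the labels.

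Of the drug-metabolising P450 genes 5 of 27 rose and 0 fell, against a list median of -0.17; rises ran from 0 without ND mouse 2 of 3 months to 3 without ND mouse 1. Of the 5, 3 were Cyp2b genes, with Cyp2b13 given above. Cyp2b10, a target of the receptor CAR, read 3.09 and 0.63 on ND and 6.59 and 5.82 on HFD (4.34 ± 0.86, adjusted p = 0.0352). Cyp2b9 read -1.61 and -4.51 on ND and 2.59 and 1.096 on HFD (4.91 ± 1.03, adjusted p = 0.0404), with 1 of the 2 ND arrays well above background. These relatives are near-identical in part, so the probes may share signal. Cyp2c70, which makes the muricholic acids of mice, read 3.54 and 4.40 on ND and 6.07 and 6.18 on HFD (2.15 ± 0.31, adjusted p = 0.0161). The fifth, Cyp1a1, was well above background on 1 array per diet only (1.96 ± 0.42, adjusted p = 0.0433). Cyp3a11 (-0.07 ± 0.48, adjusted p = 0.943) and Cyp2e1 (0.05 ± 0.27, adjusted p = 0.929), abundant enzymes of drug and ethanol metabolism, were not called.

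Among glutathione S-transferases and NRF2 targets 3 of 26 rose and 0 fell (median 0.51), and the count ran from 0 without ND mouse 1 of 3 months, ND mouse 2 of 3 months, ND mouse 1 or ND mouse 2 to 5 without HFD mouse 2. Gsta1 read 0.17 and 1.87 on ND and 5.38 and 3.60 on HFD (3.47 ± 0.73, adjusted p = 0.0409). At 3 months it read 4.99 and 4.78 on ND and 5.31 and 4.69 on HFD, so the ND mice of 9 months were the lowest of all. Mgst3, a microsomal member, read 0.86 and 1.07 on ND and 3.13 and 2.42 on HFD (1.81 ± 0.30, adjusted p = 0.0236; other probe 1.37). Nfe2l2, which encodes NRF2 itself, read 3.72 and 3.63 on ND and 4.69 and 4.46 on HFD (0.90 ± 0.18, adjusted p = 0.0369). Gsta1 had the widest spread within a diet of the 3.

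Markers of lipid-associated macrophages formed one of the lists with the largest shares of rises. Of 19 measured members 7 rose and 0 fell, 15 were higher in both HFD mice without overlap, and the list median was 1.75; the count ran from 1 without ND mouse 2 of 3 months to 8 without ND mouse 1. Of the 16 members well above background on all 4 arrays 4 rose, with a median of 1.15. Trem2, the lipid-sensing receptor that defines these cells, read -1.69 and -2.57 on ND and 2.52 and 2.04 on HFD (4.41 ± 0.34, adjusted p = 0.0056). Itgax, which encodes CD11c, read -2.30 and -3.64 on ND and 0.38 and 0.66 on HFD (3.49 ± 0.49, adjusted p = 0.0152). Cd63, a tetraspanin of late endosomes, read 1.85 and 2.06 on ND and 4.61 and 4.29 on HFD (2.50 ± 0.31, adjusted p = 0.0114). The HFD mice agreed within each gene, and the ND mice were clearly lower.

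Gpnmb, a glycoprotein of lipid-laden macrophages, read -3.50 and -5.33 on ND and 0.18 and -0.71 on HFD (4.14 ± 0.70, adjusted p = 0.0243). Atp6v0d2, a proton pump subunit, read -3.65 and -3.83 on ND and -1.06 and -1.59 on HFD (2.42 ± 0.32, adjusted p = 0.0131); 1 of the 2 ND arrays was well above background for each. Mmp12, the macrophage elastase, was not well above background on ND and was at least 2.78-fold higher on HFD (adjusted p = 0.0286). The seventh, Lgals3, a galectin, rose by 1.90 ± 0.41, adjusted p = 0.0442. Spp1, which encodes osteopontin, read -1.18 and -1.48 on ND and 0.71 and -0.77 on HFD and was not called (1.30 ± 0.47, adjusted p = 0.136).

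Of 14 measured markers of resident Kupffer cells limma called 0 (0 at an unadjusted p under 0.05), and 0 were higher in both HFD mice without overlap (median 0.18). Clec4f, specific to these cells in mouse, differed by 0.78 ± 0.47, adjusted p = 0.319, Timd4 by -1.19 ± 0.81, adjusted p = 0.375 and Marco by -2.58 ± 1.12, adjusted p = 0.192. The linear intensities of the list, relative to the 75th percentile and summed, were 472 and 165 on ND and 188 and 270 on HFD, so ND mouse 1 was the highest of the 4. Without ND mouse 1 the list median was 1.19 and without ND mouse 2 it was -0.35, so its sign rests on 1 array. No test set this list against the lipid-associated one.

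In the lysosome list 4 of 33 rose and 1 of 33 fell (median 0.46), with rises from 0 without ND mouse 2 of 3 months or ND mouse 2 to 5 without HFD mouse 2 and falls from 0 without ND mouse 1 of 3 months, ND mouse 2 of 3 months, ND mouse 1, ND mouse 2, HFD mouse 1 of 3 months or HFD mouse 2 of 3 months to 2 without HFD mouse 1. Hexa, a subunit of a lysosomal glycosidase, read 3.44 and 3.001 on ND and 4.95 and 4.92 on HFD (1.72 ± 0.23, adjusted p = 0.0138), and Cd63 and Atp6v0d2, given above, rose too. Grn, which encodes progranulin, fell, at 6.09 and 6.12 on ND and 4.18 and 5.005 on HFD (-1.51 ± 0.30, adjusted p = 0.0359).

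Of the chemokines and their receptors 5 of 22 rose and 1 of 22 fell (median 1.27), and 16 of 22 were higher without overlap; rises ran from 2 without ND mouse 2 of 3 months or ND mouse 2 to 7 without ND mouse 1 and falls from 0 without ND mouse 1 of 3 months, ND mouse 2 of 3 months, ND mouse 1, ND mouse 2, HFD mouse 1 of 3 months, HFD mouse 2 of 3 months or HFD mouse 1 to 1 without HFD mouse 2. Cx3cr1, the fractalkine receptor of monocyte-derived cells, read -2.36 and -3.11 on ND and 0.23 and 0.23 on HFD (2.96 ± 0.31, adjusted p = 0.0088). Ccl24, an attractant of eosinophils, read -2.88 and -3.15 on ND and -0.69 and -0.40 on HFD (2.47 ± 0.25, adjusted p = 0.00772). Cxcl9 read -0.57 and -1.12 on ND and 1.33 and 0.93 on HFD (adjusted p = 0.0139). Cxcl10 read 0.91 and -0.07 on ND and 2.65 and 2.63 on HFD (2.22 ± 0.40, adjusted p = 0.0277); interferon gamma induces both, and they draw T cells. Ccl4, an attractant of monocytes and T cells, rose by 2.77 ± 0.57, adjusted p = 0.0386. Ccl2, the main attractant of monocytes, read -0.37 and -3.06 on ND and 1.49 and 1.102 on HFD and was not called (3.01 ± 0.80, adjusted p = 0.0694), the ND mice being far apart. Cxcl13, an attractant of B cells, fell, at 4.86 and 2.005 on ND and -3.95 and -0.93 on HFD (-5.87 ± 1.26, adjusted p = 0.0425), with 1 of the 2 HFD arrays well above background.

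**Figure D4:**
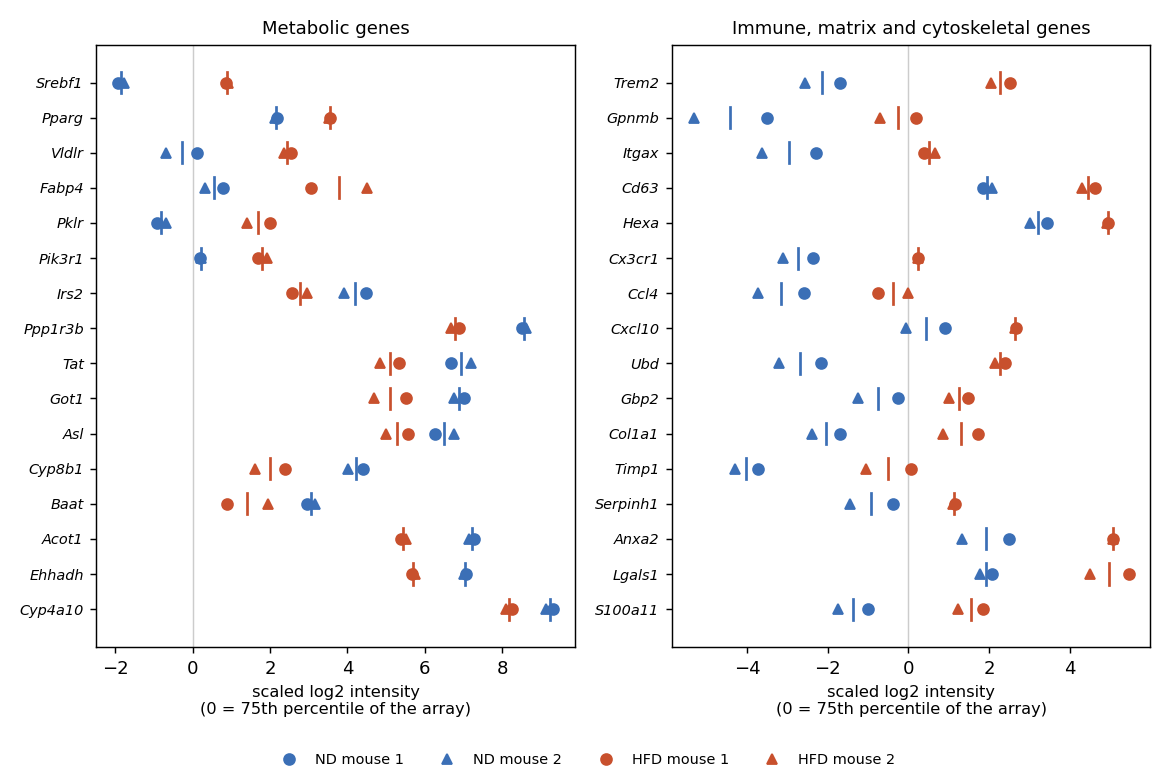
Scaled log2 intensity at 9 months of 16 metabolic genes (left) and 16 immune, matrix and cytoskeletal genes (right); circles are mouse 1 and triangles mouse 2 of each diet, ND in blue and HFD in orange, with bars at the group means. The diets do not overlap for any gene shown, which were drawn from called genes; Timp1 was not well above background on ND, and Gpnmb was on 1 of the 2 ND arrays.

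Among cytokines, NF-kB feedback and adhesion genes 4 of 22 rose and 0 fell (median 0.50), with rises from 0 without ND mouse 2 of 3 months or ND mouse 2 to 5 without ND mouse 1. Il33, an alarmin cytokine, read -2.93 and -2.96 on ND and -1.25 and -1.51 on HFD (1.56 ± 0.18, adjusted p = 0.0101). Tnfsf10, the death ligand TRAIL, read -1.90 and -2.38 on ND and -0.76 and -0.70 on HFD (1.41 ± 0.22, adjusted p = 0.0207). Osmr, the oncostatin M receptor (1.103 ± 0.25, adjusted p = 0.0465), and Tnfaip3, which restrains NF-kB (0.91 ± 0.20, adjusted p = 0.0433), rose too. Il1b read 0.999 and -1.46 on ND and -1.36 and 0.14 on HFD, with the groups crossing (-0.38 ± 0.87, adjusted p = 0.808).

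Among interferon-stimulated genes few passed the test. Of 40 measured members 5 rose and 0 fell, 33 were higher in both HFD mice without overlap, and the median was 1.04; the count of rises ran from 1 without ND mouse 1 of 3 months, ND mouse 2 of 3 months, ND mouse 2 or HFD mouse 1 to 12 without ND mouse 1. To show what regulatory sequence lies before such genes, 250 bases upstream of the RefSeq start (GRCm38.p6) are given for the 2 called members that hold the core of the interferon-stimulated response element on either strand. The core searched was GAAA, 2 bases of any kind, then GAAA. Capitals mark the match, here as its reverse complement, and each sequence runs 5′ to 3′ on the strand of the gene.
Gbp2, chr3:142620413-142620662 (+ strand): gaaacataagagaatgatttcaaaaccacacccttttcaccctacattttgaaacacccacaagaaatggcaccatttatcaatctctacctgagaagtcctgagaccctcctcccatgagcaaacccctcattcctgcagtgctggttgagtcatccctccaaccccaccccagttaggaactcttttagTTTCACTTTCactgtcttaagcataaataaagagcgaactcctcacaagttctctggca
Rsad2, chr12:26456453-26456702 (- strand): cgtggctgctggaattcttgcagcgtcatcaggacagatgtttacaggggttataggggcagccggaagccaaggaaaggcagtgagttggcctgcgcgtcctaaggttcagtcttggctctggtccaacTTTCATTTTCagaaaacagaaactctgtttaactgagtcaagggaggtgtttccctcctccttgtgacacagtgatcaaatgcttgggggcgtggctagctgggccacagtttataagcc

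The match begins 59 bases before the start in Gbp2 and 120 bases before it in Rsad2. Of the 30 list members with a promoter in the table, 14 (46.7%) hold the motif, against 3.99% of all 27025 genes of that table. These shares count matches from 250 bases before the start to 50 bases after it. Of the 5 called, 4 are in the table and 2 hold it. A match describes letters only. Gbp2, a guanylate-binding protein, read -0.25 and -1.25 on ND and 1.49 and 1.003 on HFD (1.995 ± 0.36, adjusted p = 0.0282). Rsad2, which encodes the antiviral enzyme viperin, read 0.57 and -0.49 on ND and 1.77 and 1.82 on HFD (1.75 ± 0.38, adjusted p = 0.0433). In both genes ND mouse 1 lay above ND mouse 2. Oasl2 rose by 1.97 ± 0.35, adjusted p = 0.0266 and Gbp4 by 1.34 ± 0.29, adjusted p = 0.0451, and Ubd, given above, was the fifth.

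Class II genes of the major histocompatibility complex, which present antigen to helper T cells, held a rise: 1 of 8 rose, H2-DMb1 at 0.51 and -0.88 on ND and 1.83 and 1.77 on HFD (1.99 ± 0.43, adjusted p = 0.0445), and 0 fell (median 1.40). The count ran from 0 without ND mouse 1 of 3 months, ND mouse 2 of 3 months, ND mouse 2, HFD mouse 1 of 3 months, HFD mouse 2 of 3 months or HFD mouse 2 to 4 without ND mouse 1. H2-Ab1 (2.17 ± 0.50, adjusted p = 0.0511) and H2-Eb1 (2.10 ± 0.49, adjusted p = 0.0516) narrowly missed the threshold.

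Several collagen genes of scar tissue and of the basement membrane rose. Of 18 measured collagens and basement membrane genes 7 rose and 0 fell, and 15 were higher without overlap (median 1.02); the count ran from 2 without ND mouse 1 of 3 months, ND mouse 2 of 3 months or ND mouse 2 to 7 without HFD mouse 2. Col1a1 and Col3a1, the fibrillar collagens of scar tissue, read -1.70 and -2.40 on ND and 1.73 and 0.86 on HFD (3.34 ± 0.38, adjusted p = 0.0101) and -0.86 and -1.45 on ND and 2.18 and 1.34 on HFD (2.92 ± 0.34, adjusted p = 0.0107). Col1a2 read 1.16 and 0.92 on ND and 3.43 and 2.65 on HFD (2.003 ± 0.31, adjusted p = 0.0188). In all 3 genes HFD mouse 1 was the highest and ND mouse 2 the lowest of the 4. Col6a1, a microfibril collagen (1.71 ± 0.25, adjusted p = 0.0162), Col5a1, which joins fibrils (1.52 ± 0.23, adjusted p = 0.0178), and Nid1, a basement membrane linker (1.86 ± 0.34, adjusted p = 0.028), also rose.

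In the list of matrix proteins, crosslinking and turnover 7 of 29 rose and 0 fell (median 0.85), from 1 without ND mouse 1 of 3 months, ND mouse 2 of 3 months or ND mouse 2 to 8 without HFD mouse 2. Timp1, an inhibitor of matrix proteases, was not well above background on ND and was at least 10.9-fold higher on HFD (adjusted p = 0.0108). Serpinh1, the collagen chaperone, read -0.39 and -1.46 on ND and 1.16 and 1.09 on HFD (2.05 ± 0.35, adjusted p = 0.0241). Lum, a proteoglycan of collagen fibrils, read 0.53 and 0.000 on ND and 1.70 and 1.68 on HFD (1.42 ± 0.25, adjusted p = 0.0275). Timp3, a matrix-bound inhibitor, rose by 1.82 ± 0.34, adjusted p = 0.0298. Thbs1, an activator of TGF-beta, rose by 2.66 ± 0.57, adjusted p = 0.0428, with 1 of the 2 ND arrays well above background.

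Of the markers of stellate cells and myofibroblasts 5 of 17 rose and 0 fell (median 0.95), from 2 without ND mouse 1 of 3 months, ND mouse 2 of 3 months or ND mouse 2 to 6 without HFD mouse 2, of which Col1a1, Col1a2, Col3a1 and Lum are shared with the lists above and Rgs5, a pericyte gene, is not (1.65 ± 0.34, adjusted p = 0.0388). Acta2, the actin of myofibroblasts (0.80 ± 0.39, adjusted p = 0.234), and Lrat, which stores retinoid in quiescent stellate cells (0.95 ± 0.36, adjusted p = 0.144), were not called. Tagln read 5.45 and 4.02 on ND and 2.44 and 2.93 on HFD and was not called (-2.05 ± 0.56, adjusted p = 0.0758).

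Cytoskeletal genes and annexins rose in 7 of 36 and fell in 0 (median 0.84); the count ran from 3 without ND mouse 2 of 3 months to 9 without HFD mouse 1. Anxa2, a calcium-dependent membrane binder, read 2.50 and 1.31 on ND and 5.07 and 5.08 on HFD (3.17 ± 0.37, adjusted p = 0.0107). Lgals1, a galectin, read 2.06 and 1.76 on ND and 5.46 and 4.49 on HFD (3.06 ± 0.34, adjusted p = 0.00924). S100a11, a calcium-binding partner of annexins, read -1.01 and -1.75 on ND and 1.86 and 1.22 on HFD (2.92 ± 0.34, adjusted p = 0.0107). These 3 were called whichever of the 8 arrays was left out. Anxa5 (1.77 ± 0.25, adjusted p = 0.0154), Anxa4 (1.18 ± 0.18, adjusted p = 0.0175) and Tagln2 (1.82 ± 0.25, adjusted p = 0.0148) followed, with Lgals3 given above.

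In the list of the cell cycle and DNA replication 6 of 24 rose and 0 fell (median 1.096), and the count ran from 0 without ND mouse 2 of 3 months to 6 without HFD mouse 2 of 3 months or HFD mouse 1. Of the replicative helicase, Mcm3 read -0.60 and -0.88 on ND and 0.77 and 0.66 on HFD (1.46 ± 0.20, adjusted p = 0.0139). Mcm6 read 0.10 and 0.04 on ND and 1.32 and 1.36 on HFD (1.27 ± 0.20, adjusted p = 0.0212). Mcm5 read -3.14 and -3.61 on ND and -1.75 and -1.45 on HFD (1.78 ± 0.27, adjusted p = 0.0185), and Mcm2 rose by 1.098 ± 0.24, adjusted p = 0.046. Cdc20, which starts anaphase, read -2.96 and -3.27 on ND and -1.59 and -1.51 on HFD (1.57 ± 0.24, adjusted p = 0.0182). Ccna2, a cyclin of S phase, was not well above background on ND and was at least 2.37-fold higher on HFD (adjusted p = 0.0268).

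Of p53 targets and growth stress genes 2 of 23 rose and 1 of 23 fell (median 0.53), rises from 1 without ND mouse 2 of 3 months, ND mouse 1 or ND mouse 2 to 3 without HFD mouse 1 of 3 months or HFD mouse 1 and falls from 0 without ND mouse 2 of 3 months, ND mouse 1, ND mouse 2 or HFD mouse 2 to 2 without HFD mouse 1. Phlda3, a p53-induced brake on AKT, read -0.59 and -0.76 on ND and 1.36 and 1.46 on HFD (2.08 ± 0.18, adjusted p = 0.00654), and was called whichever array was left out. Btg2, an antiproliferative gene, read -1.26 and -0.87 on ND and 0.84 and 1.09 on HFD (2.03 ± 0.38, adjusted p = 0.0311), and Gadd45g, a stress sensor, fell, at 5.04 and 5.69 on ND and 2.89 and 2.09 on HFD (-2.88 ± 0.47, adjusted p = 0.0225). Cdkn1a, the classic p53 target p21, read 0.62 and 1.14 on ND and 0.50 and 1.36 on HFD with overlap (0.06 ± 0.33, adjusted p = 0.933); its sign turned with median scaling. Gdf15, a stress cytokine, was higher in both HFD mice, at 3.53 and 3.63 on ND and 4.81 and 5.84 on HFD, without a call (1.75 ± 0.70, adjusted p = 0.165).

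In the unfolded protein and integrated stress response 3 of 29 rose and 0 fell, while 22 of 29 were higher in both HFD mice without overlap (median 0.67); the count of rises ran from 0 without ND mouse 1 of 3 months, ND mouse 2 of 3 months, ND mouse 1 or ND mouse 2 to 5 without HFD mouse 2. Hyou1, a chaperone of the endoplasmic reticulum, read -1.34 and -1.26 on ND and -0.36 and -0.04 on HFD (1.097 ± 0.21, adjusted p = 0.0324). Chac1, a glutathione-degrading target of ATF4, read 0.96 and 0.22 on ND and 2.17 and 1.97 on HFD (1.48 ± 0.33, adjusted p = 0.0449); Trib3 was given above. Hspa5, the master chaperone BiP, differed by 0.56 ± 0.19, adjusted p = 0.11 and Ddit3, which encodes CHOP, by 1.02 ± 0.31, adjusted p = 0.0941. Asns, a target of ATF4, lay the other way at -4.10 ± 1.13, adjusted p = 0.0755. The ER stress element (CCAAT, 9 bases of any kind, then CCACG, on either strand) lies in 8 of the 27 members with a promoter (29.6%) against 0.137% of all genes of the promoter table, and in 0 of the 2 called members with one.

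In the list of clock genes and outputs 4 of 19 rose and 1 of 19 fell (median 0.98); rises ran from 2 without ND mouse 2 of 3 months or ND mouse 1 to 5 without HFD mouse 2 and falls from 0 without ND mouse 2 of 3 months, ND mouse 1 or ND mouse 2 to 1 without ND mouse 1 of 3 months, HFD mouse 1 of 3 months, HFD mouse 2 of 3 months, HFD mouse 1 or HFD mouse 2. Arntl, the activator BMAL1, read 0.51 and 0.43 on ND and -1.20 and -1.34 on HFD (-1.75 ± 0.26, adjusted p = 0.0175). Of the genes that BMAL1 and CLOCK drive, Dbp is given above. Wee1, a mitotic kinase, read -2.31 and -1.40 on ND and 1.46 and 1.41 on HFD (3.29 ± 0.32, adjusted p = 0.00752). Bhlhe40 read 0.84 and 1.22 on ND and 2.79 and 2.69 on HFD (1.71 ± 0.32, adjusted p = 0.0298). Nr1d2, a repressor of Arntl, read 1.14 and 1.28 on ND and 2.62 and 2.33 on HFD (1.26 ± 0.23, adjusted p = 0.0275). Per1 (0.38 ± 1.04, adjusted p = 0.843) and Nr1d1 (0.24 ± 0.43, adjusted p = 0.752) were not called. At 3 months Arntl read -1.83 and -1.265 on ND and -1.70 and -1.245 on HFD. Dbp read 6.43 and 6.055 on ND and 6.45 and 6.54 on HFD at 3 months. For both genes the ND mice of 9 months lay apart from all other mice. Bhlhe40 differed by -0.49, Wee1 by 2.10 and Nr1d2 by 0.57 at 3 months. The hour at which each mouse was killed is not given in the sources used here. Of 15 members with a promoter, 4 hold the E-box CACGTG, 2 the D-box TTATGNAA and 5 the nuclear receptor motif AGGTCA, which 8.09%, 3.99% and 18.1% of all genes of the promoter table hold. Of the 3 called members with a promoter, 0 hold the E-box, 0 the D-box and 2 the nuclear receptor motif.

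Metallothioneins and genes of zinc and iron handling gave 0 calls among 22 in limma (7 at an unadjusted p under 0.05); 3 fell without HFD mouse 1 or without HFD mouse 2, and 2 rose without HFD mouse 1. Mt1 read 9.28 and 8.79 on ND and 7.58 and 8.34 on HFD (-1.08 ± 0.34, adjusted p = 0.0988). Mt2 read 8.71 and 8.01 on ND and 7.13 and 7.34 on HFD (-1.12 ± 0.30, adjusted p = 0.0687). Hamp, the iron hormone hepcidin, read 8.98 and 8.79 on ND and 6.54 and -2.03 on HFD, a wide gap with wide scatter that was not called (-6.63 ± 2.42, adjusted p = 0.137). Neither Fgf21, a hormone of fasting and stress, at 3.80 and 2.65 on ND and 3.27 and 4.41 on HFD (0.61 ± 0.59, adjusted p = 0.536), nor Saa1 (-0.58 ± 1.43, adjusted p = 0.823) was called.

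Lists of basic cell functions held no call from limma. Of respiratory chain subunits 0 of 42 were called, 6 at an unadjusted p under 0.05 (median 0.07). Of cytosolic ribosomal proteins 0 of 42 were called, 4 at that p (median 0.01), and of proteasome subunits 0 of 30, 5 at that p (median -0.19). Apolipoproteins (0 of 19, 5 at that p), complement and coagulation (0 of 33, 7) and heat shock proteins (0 of 14, 2) held none either. The acute-phase list gave 1 fall among 25, Serpina3m (-1.06 ± 0.20, adjusted p = 0.0293), and the sphingolipid list 1 among 19, Sphk2, a sphingosine kinase, at 5.36 and 5.29 on ND and 4.001 and 3.98 on HFD (-1.33 ± 0.16, adjusted p = 0.0108). Of fetal and tumour-associated liver genes 1 of 19 rose, Spink1, a trypsin inhibitor (2.28 ± 0.50, adjusted p = 0.0438). Leaving out 1 array gave 2 falls among proteasome subunits without HFD mouse 1, 2 among ribosomal proteins without HFD mouse 2, 2 among apolipoproteins without either, and 2 among heat shock proteins without HFD mouse 1. It gave at most 1 rise and 1 fall in complement and coagulation and 0 calls in the respiratory chain, while 2 sphingolipid and 3 fetal liver genes rose without HFD mouse 2. A count of 0 does not show that levels were equal.

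The tissue carried the defining markers of liver. Alb, Apoa1, Ttr and Serpina1c were well above background on all 4 arrays and uncalled, and of 21 hepatocyte markers 1 fell, Tat, a count that ran from 0 without ND mouse 1 of 3 months, ND mouse 2 of 3 months or ND mouse 2 to 4 without HFD mouse 1. Of the markers of T and NK cells 1 of 12 fell, Cd4 (-3.002 ± 0.35, adjusted p = 0.0107), while Cd3e, which all T cells carry, was not called (-1.17 ± 0.52, adjusted p = 0.196) and Cd8a was not among the features tested. Of B and plasma cell markers 2 of 9 fell, Cd22 (-1.61 ± 0.29, adjusted p = 0.0293) and Sdc1 (-1.11 ± 0.22, adjusted p = 0.0369); Sdc1 is also made by hepatocytes. Of neutrophil markers 1 of 7 fell, Elane (-3.54 ± 0.73, adjusted p = 0.0393), with S100a8 (1.41 ± 1.03, adjusted p = 0.407) and S100a9 (1.74 ± 1.01, adjusted p = 0.308) lying the other way and uncalled. Of T and NK cell markers 3 fell without HFD mouse 2. For B and plasma cell markers they ran from 0 without ND mouse 1 of 3 months, ND mouse 2 of 3 months, ND mouse 1 or ND mouse 2 to 1 without HFD mouse 1 of 3 months, HFD mouse 2 of 3 months, HFD mouse 1 or HFD mouse 2, and 3 rose without ND mouse 1. The neutrophil markers gave 6 rises without HFD mouse 1, and their fall was called only without HFD mouse 1 or 2 of 3 months.

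Of endothelial markers 2 of 20 rose: Flt4, a receptor of lymphatic and sinusoidal vessels (1.66 ± 0.34, adjusted p = 0.0382), well above background on 1 ND array, and Emcn (adjusted p = 0.0308), well above background on 0 ND arrays and 1 HFD array, for which no size is given. Of the 17 members well above background on all 4 arrays 0 were called by limma. Of monocyte and dendritic cell markers 1 of 12 rose, Plac8 (1.91 ± 0.40, adjusted p = 0.0413). The other probe of Plac8 differed by 1.19, with the diets overlapping, and was not called on its own. Of cholangiocyte markers 1 of 9 fell, Cftr (-1.79 ± 0.29, adjusted p = 0.0222), with Sox9 not called (0.30 ± 0.21, adjusted p = 0.391) and Krt7 and Epcam not among the features tested. With 1 array left out, rises ran from 0 without ND mouse 1 of 3 months, ND mouse 2 of 3 months, HFD mouse 1 of 3 months or HFD mouse 2 of 3 months to 2 without HFD mouse 1 or HFD mouse 2 for endothelial markers and from 0 without ND mouse 1 of 3 months, ND mouse 2 of 3 months, ND mouse 2, HFD mouse 1 of 3 months, HFD mouse 2 of 3 months or HFD mouse 2 to 2 without ND mouse 1 for monocytes and dendritic cells, and falls from 0 without ND mouse 1 of 3 months, ND mouse 2 of 3 months, ND mouse 1 or ND mouse 2 to 1 without HFD mouse 1 of 3 months, HFD mouse 2 of 3 months, HFD mouse 1 or HFD mouse 2 for cholangiocytes.

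Lists for tissue that could lie beside the liver were also read. Of erythroid genes 1 of 8 rose, Car2 (1.47 ± 0.20, adjusted p = 0.0139), and the list summed to 397 and 293 on ND and 478 and 1461 on HFD, so HFD mouse 2 carried the most; rises ran from 0 without ND mouse 2 of 3 months, ND mouse 1 or ND mouse 2 to 4 without HFD mouse 1. Among 6 exocrine pancreas genes 1 rose and 1 fell, the latter being Clps (-2.70 ± 0.56, adjusted p = 0.0404), called with 1 array left out only without ND mouse 2. Of the 4 well above background on all 4 arrays 0 rose. The part of such tissue in the results was not tested.

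Some called genes were well above background in 1 diet only. This choice fixed their direction in advance, and the number of such genes without a call is not given. With both HFD arrays measured and neither ND array, 37 called genes were higher; the largest bounds were Gprc5b at least 12.3-fold, Timp1 10.9-fold, Vsig8 10.6-fold, Themis 9.81-fold and Uhrf1 9.65-fold, on the bound defined for Hao2. Gprc5b, an orphan receptor, read -5.73 and -5.35 on ND and -0.48 and -0.48 on HFD as measured, and its other probe differed by 5.62; Uhrf1, a partner of DNA methylation at replication, read -5.59 and -6.35 on ND and 0.53 and -2.20 on HFD. In the reverse case 72 genes were lower, led by Uncx at least 16.1-fold, Gucy2c 15.4-fold, Bhlha9 12.3-fold, Art5 9.51-fold and Phkg1 8.99-fold. Gucy2c, a guanylate cyclase receptor, read 0.34 and -0.18 on ND and -4.35 and -3.88 on HFD (adjusted p = 0.0056).

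Features without a symbol held most of the called falls. Of 7280, 150 were called higher and 567 lower, and of 2322 probes designed to genomic regions 38 (1.64%) were higher and 242 (10.4%) lower. Among genes with a symbol well above background on all 4 arrays, 447 of 11283 were higher and 265 lower. Dim probes and unnamed regions therefore make up much of the excess of falls; its cause was not tested.

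Whether the diet difference after 9 months is other than that after 3 months was tested by the interaction of diet and duration. It called 0 of 20165 features with limma (0%), with 1537 at an unadjusted p under 0.05 and a smallest adjusted p of 0.146. Leaving out HFD mouse 1 turned the 0 into 173 and leaving out HFD mouse 2 into 1. The 3-month arrays lay on the same 2 slides, by diet, so the slide enters both differences.

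The 5 genes below had the smallest interaction p among genes with an established symbol that were well above background on all 8 arrays. They did not pass, and their values are given as a description. Car3, a carbonic anhydrase abundant in liver and fat, differed by -0.34 ± 0.17 at 3 months and 2.89 ± 0.17 at 9 (interaction adjusted p = 0.146). Its levels at 3 months were 9.55 and 9.62 on ND and 9.27 and 9.21 on HFD, and at 9 months 5.51 and 5.69 on ND and 8.57 and 8.42 on HFD. The 2 ND mice of 9 months were the lowest of the 8. Mt2 differed by 2.60 ± 0.30 at 3 months and -1.12 ± 0.30 at 9, and its 3-month levels were 1.11 and 1.17 on ND and 3.99 and 3.49 on HFD, far under all 4 mice of 9 months. Rab30 gave 2.46 ± 0.20 and -0.13 ± 0.20, Acot5 1.02 ± 0.28 and -2.30 ± 0.28, and Cyp4a32 1.06 ± 0.21 and -1.77 ± 0.21, each with an interaction adjusted p of 0.228. Cyp4a32 read 4.75 and 4.38 on ND and 5.72 and 5.54 on HFD at 3 months and 7.90 and 7.64 on ND and 6.06 and 5.95 on HFD at 9, so the ND mice of 9 months were the highest.

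The values at both durations are given for some further members. Cyp2b13 differed by 6.75 ± 1.18 at 3 months and 6.97 ± 1.18 at 9, Col1a1 by 2.86 ± 0.38 and 3.34 ± 0.38, Ubd by 3.67 ± 0.35 and 4.96 ± 0.35, and Mcm5 by 2.54 ± 0.27 and 1.78 ± 0.27. For Pparg the values were -0.11 ± 0.17 and 1.40 ± 0.17, for Dbp 0.25 ± 0.23 and 2.76 ± 0.23, and for Lgals1 0.96 ± 0.34 and 3.06 ± 0.34. None of these passed the interaction test, so a change of the diet difference with duration is not shown for any of them.

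**Figure D5:**
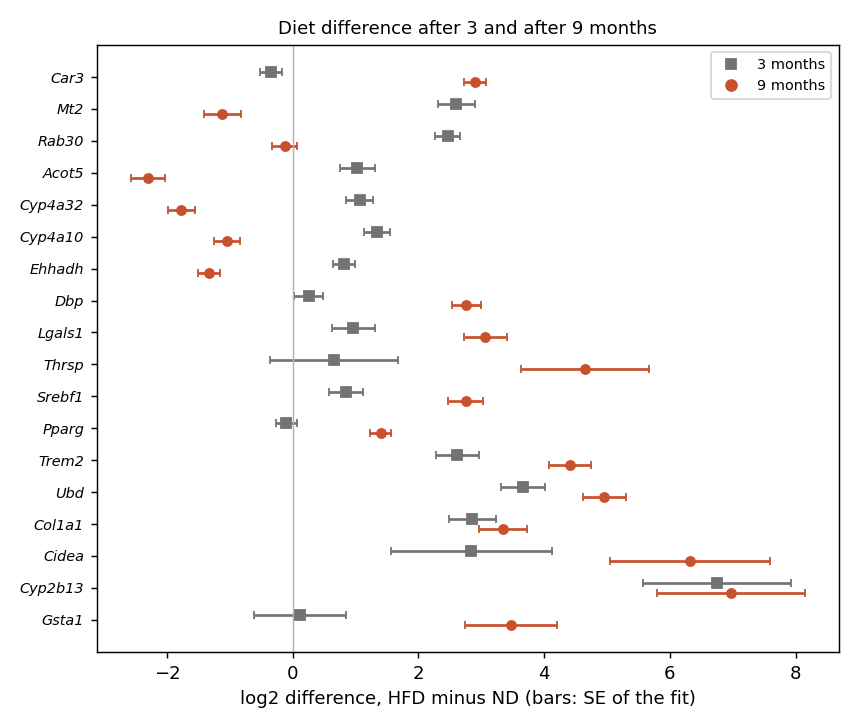
Log2 difference between diets (HFD minus ND) after 3 months (grey squares) and after 9 months (orange circles) for 18 genes; bars are the standard error of the fit. Car3 moves from -0.34 to 2.89 and Cyp4a32 from 1.06 to -1.77, while Cyp2b13 lies at 6.75 and 6.97; no interaction passed the threshold.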

How the data were processed

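Liver RNA of 8 male mice was measured on Agilent 1-colour arrays. The authors read each array with Agilent Feature Extraction 10.7.1.1, per the submitters' processing notes, and deposited the spot intensity after background subtraction, with flags of other kinds (well above background, control, outlier). The authors' deposited series matrix holds log2 values, whose scaling the sources used here do not state; it served as an alternative.

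Outlier spots and control spots were left out, and log2 intensity (no pseudocount) was reduced by each array's 75th percentile. Spots of a probe were averaged, a probe was kept (25801 of 55603) where some group had it well above background on each of its 2 arrays, and a gene was read on the brightest of its kept probes by mean value. Symbols come from matching accessions to a RefSeq table (26056 probes, 19752 symbols); promoters are RefSeq's, GRCm38.p6. No genome coordinates of probes are printed.

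limma 3.58.1 (R 4.3.3) fitted 4 group means over the 8 arrays with eBayes (4 residual and 2.33 prior degrees of freedom). Benjamini-Hochberg adjustment ran over 20165 features. The fit was also run on simulated data that held no slide effect and no filter on dim probes, so that run does not bear on either. The labels name each sample a mouse, 2 per group, and this small number limits precision. The members and gene lists were chosen with earlier results of these data known. Genes were selected as the 12 largest rises and 12 largest falls among called genes well above background on all 4 arrays and without overlap, as many whose every probe moved the same way, up to 6 called members of each list by p, a panel of known genes, the 5 largest bounds in each direction and the 5 smallest interaction p; some of them are not reported here. The interaction genes were taken from those well above background on all 8 arrays whose symbol is not a clone, model or accession name. Mouse numbers did not pair the samples (correlation of deviations -0.018 at 9 months and 0.013 at 3 months). Motifs were searched by their letters on both strands, 7 pairs of motif and list in all. Alternatives changed scaling, background correction, filters, probe choice, weights, arrays and the block.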

Additional observations from a re-analysis of the deposited data

How the results depend on the processing

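Against 1670 called features (717 higher, 953 lower), the fit called 1886 (790, 1096) with quantile normalization, 1376 (372, 1004) with scaling to the median, 2389 (1152, 1237) with normexp background and quantile normalization together, 2270 (1066, 1204) in the authors' value table, 274 (84, 190) with no filter on dim probes, 1497 (763, 734) with only probes detected on all 8 arrays, 1336 (667, 669) with those detected on all 4 arrays of 9 months, 1816 (746, 1070) with a floor on dim values, 1578 (657, 921) with the mean of all kept probes, 1857 (756, 1101) with every probe on its own, 1984 (930, 1054) with trend and robust moderation, 276 (67, 209) with array weights, and 0 (0, 0) with the 4 arrays alone. With 1 array left out the counts ran from 223 to 2861 in all, from 59 to 1348 higher and from 164 to 1548 lower; a lone array left in a group is assumed to vary like the others. The mouse number as a replicate block gave 1358 (540, 818), and 700 of the 953 called genes with a symbol were still called. Every mouse 1 lay in column 1 of its slide and every mouse 2 in column 2. The interaction called 0 features in the main setting and 1 with quantile normalization, with only probes detected on all 8 arrays, and with trend and robust moderation; with 1 array left out it called from 0 to 173. Cdkn1a (0.055 in the main setting) differed by -0.006 with median scaling and from -0.373 to 0.484 with 1 array left out. Leaving out 1 array moved Il1b (-0.38) between -1.61 and 0.849, and Saa1 (-0.583) between -3.012 and 1.846. Their signs turned, Cdkn1a without ND mouse 1 or HFD mouse 2, Il1b without ND mouse 1 or HFD mouse 1 and Saa1 without ND mouse 1; the cause was not tested. All 154 selected called genes kept their direction in every fit. Where the diets do not overlap, leaving out 1 array could not have turned it on the same probe. Dim signal limits what can be said: 37 and 72 called genes have only a bound in 1 diet.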
